A study of Homo sapiens with 12 samples.

Results

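The 8 genes described here are the switch of the SREBP pathway and one brake on LDL uptake: SREBF1 and SREBF2, which encode the SREBP transcription factors, SCAP, INSIG1, INSIG2, MBTPS1, MBTPS2 and MYLIP. They were taken by gene symbol, as every gene probe of the array whose name in the scanner files is one of these symbols, which gave 15 of 41000 probes and 8 of 29123 gene names. RNA of HuH-7 cells, an established hepatocellular carcinoma line that carries the Y220C mutation in p53, was measured on 12 microarrays of 1 colour, 4 biological replicates per group. The groups were the solvent DMSO, 28 µM SLMP53-2 and 42 µM SLMP53-2, each for 24 h, and the labels give the doses as 2 and 3 times the IC50. SLMP53-2 was studied as a compound that reactivates mutant p53. Every group carries the p53 mutation and no group lacks p53, and all cells are of 1 line. Sample descriptions write 48 µM where titles and protocol write 42 µM for the higher dose, and the text uses 42 µM. The values are log2 brightness of a probe after background correction and quantile normalization, so a difference of 1 is a doubling. Brightness was compared between probes of the same gene only to pick or name the brighter probe. It was not read as a difference in RNA between genes. A probe was called changed when limma's Benjamini-Hochberg adjusted p was below 0.05 and the log2 fold change was at least 0.6 either way.

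SREBPs are made as membrane proteins of the endoplasmic reticulum and are bound there by SCAP, the sterol sensor that escorts them to the Golgi. When sterols are plentiful, the INSIG proteins hold SCAP back. When sterols are scarce, the site-1 protease (MBTPS1) and the site-2 protease (MBTPS2) cut the SREBP in the Golgi, and the freed part enters the nucleus and switches on genes of sterol and fatty acid synthesis and of lipoprotein uptake. INSIG1, SREBF1 and SREBF2 are themselves known SREBP targets, which gives the pathway a feedback loop. MYLIP, also called IDOL, is an E3 ubiquitin ligase that marks lipoprotein receptors for degradation and is switched on by the sterol-sensing receptor LXR rather than by SREBP. The liver is a main site of this control, because hepatocytes both make cholesterol and clear LDL from the blood.

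Shown are the promoters of the 3 genes with a called probe. That of INSIG2 is added as the close relative of INSIG1 that did not pass the test. Each line is the 250 bases before the RefSeq start on GRCh38.p14, read in the direction of the gene, and capitals mark matches on either strand to TCACNCCAC (a sterol regulatory element), CACGTG (an E-box) or CCAAT (the box bound by NF-Y, a usual partner of SREBP). The SREBF1 window is chr17:17836987-17837236 on the minus strand, that of SREBF2 chr22:41832855-41833104 on the plus strand, that of INSIG1 chr7:155297628-155297877 on the plus strand and that of INSIG2 chr2:118088221-118088470 on the plus strand. These windows belong to the start that RefSeq lists and not to every start of the gene.
SREBF1: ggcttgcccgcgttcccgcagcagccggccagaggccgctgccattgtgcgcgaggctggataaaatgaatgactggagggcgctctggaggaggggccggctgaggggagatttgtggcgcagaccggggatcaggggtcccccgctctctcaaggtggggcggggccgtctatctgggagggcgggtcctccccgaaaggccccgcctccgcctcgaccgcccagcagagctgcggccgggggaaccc
SREBF2: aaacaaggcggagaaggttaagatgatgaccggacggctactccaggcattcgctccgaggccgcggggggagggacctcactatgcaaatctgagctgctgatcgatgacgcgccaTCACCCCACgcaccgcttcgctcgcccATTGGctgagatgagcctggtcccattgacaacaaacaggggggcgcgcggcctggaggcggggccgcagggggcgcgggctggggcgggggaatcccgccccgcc
INSIG1: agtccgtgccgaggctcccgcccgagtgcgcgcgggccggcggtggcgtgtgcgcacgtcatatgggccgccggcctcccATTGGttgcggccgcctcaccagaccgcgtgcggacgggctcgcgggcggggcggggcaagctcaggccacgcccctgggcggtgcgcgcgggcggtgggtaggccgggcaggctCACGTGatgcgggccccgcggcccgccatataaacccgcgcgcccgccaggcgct
INSIG2: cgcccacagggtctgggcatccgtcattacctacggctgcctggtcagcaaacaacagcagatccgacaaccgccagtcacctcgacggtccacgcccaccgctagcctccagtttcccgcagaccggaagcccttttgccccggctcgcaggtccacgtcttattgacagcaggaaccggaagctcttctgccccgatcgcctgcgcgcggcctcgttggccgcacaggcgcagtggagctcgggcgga

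SREBF2 held the sterol element, which begins 133 bases before the start, and an NF-Y box on the opposite strand that begins 106 bases before it. INSIG1 held an E-box 55 bases and an NF-Y box 170 bases before the start. SREBF1 and INSIG2 held none of the 3 in this window, nor did a further INSIG2 window that RefSeq lists. Among 35116 promoter windows of the same length the sterol element was found in 0.883%, the E-box in 6.34% and the NF-Y box in 32.0%. Of the 9 windows of the 8 genes, 1 held the sterol element, 2 the E-box (INSIG1 and SCAP) and 3 the NF-Y box (SREBF2, INSIG1 and MYLIP, which held it 2 times). A match is a run of letters and not a measured binding site.

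Of the 15 probes, 14 were tested. All but 1 of these were well above background on all 12 arrays, and the exception was MBTPS1 probe A_24_P378368, which was so on 8. The probe left out, A_24_P213856 of MBTPS2, was not above background on any array, and its values lay between 5.32 and 5.73. No spot of the 15 probes was saturated or had an outlier flag. The label of the line fitted its markers: all 12 hepatocyte markers, ALB, AFP and APOA1 among them, were above background on every array. Their summed level, over the 11 with a value on every array, ranged from 18.08 to 18.19 on the log2 scale in DMSO, from 18.05 to 18.30 at 28 µM and from 18.15 to 18.26 at 42 µM. Of 12 markers of blood, endothelial, fibroblast, squamous and glial cells, 5 were above background on every array and each of the others on at least 2. The leukocyte marker PTPRC was above background on 3 arrays and the keratinocyte marker KRT5 on 2. The summed level of these 12 was from 10.14 to 10.47 in DMSO, from 9.88 to 10.34 at 28 µM and from 10.07 to 10.27 at 42 µM, and their part in the results was not tested.

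The 28 µM arrays differed among themselves. Replicate 1 had the lowest mean Pearson correlation over all tested probes, 0.970 with the other 28 µM arrays and 0.971 with the DMSO arrays. Replicate 4 was the nearest of the treated arrays to DMSO, at 0.9851, and was at 0.975 with the other 28 µM arrays. Its margin over all probes was small, as 42 µM replicate 4 was at 0.9840 with DMSO and 28 µM replicate 3 at 0.9835. Results at 28 µM are also given without replicate 4. That array was picked out because it lay near DMSO, which is the outcome itself, so values without it are a description and no test of the 28 µM dose. With any other of the 12 arrays left out, 0 probes of the whole table were called at 28 µM. The arrays lie on 5 slides, and no slide holds all of a group. Both SLMP53-2 groups were compared with the same 4 DMSO arrays, so their results are not independent of each other.

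**Figure D1:**
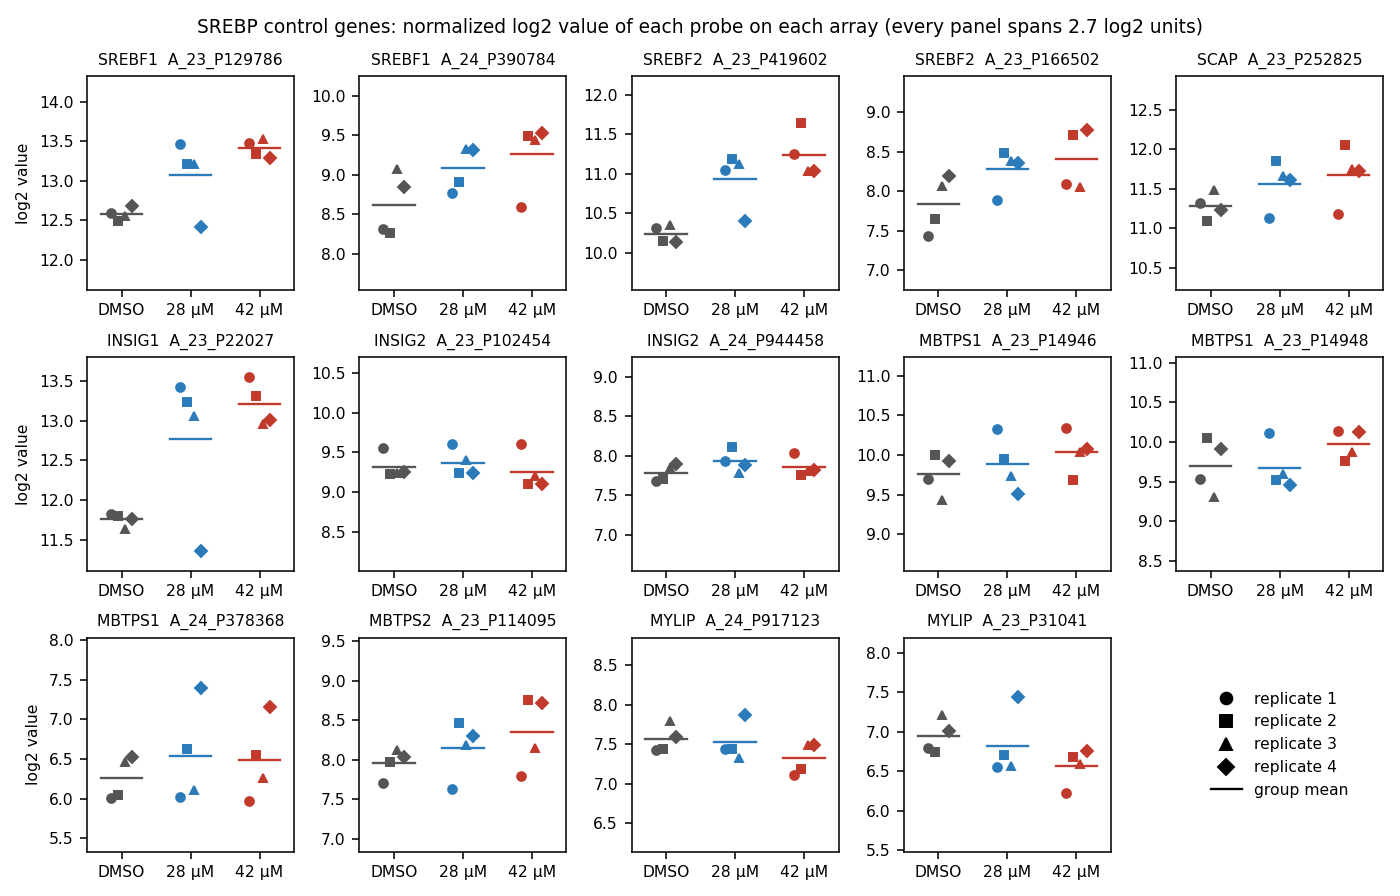
Normalized log2 value (y axis) of the 14 tested probes of the 8 genes on each of the 12 arrays, by group (x axis), with 1 marker shape per replicate number and a line at the group mean. The bright probes of SREBF1, SREBF2 and INSIG1 are above every DMSO array on all 42 µM arrays. The 28 µM replicate 4 array is below every DMSO array for SREBF1 and INSIG1 and just above them for SREBF2.

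Among the 8 genes, INSIG1, SREBF2 and SREBF1 rose at 42 µM and no gene fell. At that dose 3 of 14 probes were called higher and 0 lower, while 1.41% of the 33477 probes tested were called higher. On these 3 probes every 42 µM array was above every DMSO array, as was true of 5.82% of all probes. At 28 µM 0 of 14 probes passed, as did 0% of all probes. By an unadjusted p below 0.05 with the same limit on the fold, 2 of 14 were higher at 28 µM, INSIG1 and SREBF2, against 1.36% of all probes. Without replicate 4 the same model called 3 of 14 higher at 28 µM, the probes also called at 42 µM, and 1.31% of all probes, and nothing is read from this count. The members were chosen with earlier results of these data known, so the shares over all probes are a description and no test. The amount of a transcript in bulk RNA can differ because fewer cells carry it or because each cell holds less, and these cannot be told apart.

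INSIG1 encodes the ER protein that retains SCAP, and it had the largest increase of the 14 probes. Its only probe, A_23_P22027, lies at chr7:155100071-155100130 of hg19 on the plus strand and starts at base 750 of the transcript it was designed on. In DMSO its log2 values were 11.82, 11.80, 11.63 and 11.77 for replicates 1 to 4. At 28 µM they were 13.42, 13.23, 13.06 and 11.35, and at 42 µM 13.56, 13.32, 12.95 and 13.01. All 42 µM arrays and 3 of the 28 µM arrays were more than 1 unit above the DMSO mean, and 28 µM replicate 4 was below every DMSO array. The mean rose from 11.75 ± 0.08 (SD, n = 4) in DMSO to 13.21 ± 0.28 (n = 4) at 42 µM. This is a log2 fold change of 1.46 (SE 0.35, 95% interval 0.71 to 2.20), or 2.74-fold, with limma's adjusted p = 0.0401. At 28 µM the log2 fold change was 1.02 (SE 0.35, limma adjusted p = 0.303) with all arrays. It was 1.49 without replicate 4 and between 0.80 and 1.04 with any other array left out.

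The INSIG1 call at 42 µM was lost when any DMSO array, any 42 µM array or 28 µM replicate 3 was left out, with limma's adjusted p between 0.0558 and 0.130 and a log2 fold change between 1.34 and 1.54. Within the 3 slides that hold both groups INSIG1 was higher at 42 µM than in DMSO in 3 of 3, by 1.16 to 1.79 on the log2 scale. The call also missed the threshold with the slide as a block (1.47, limma adjusted p = 0.0801) and with arrays scaled to their 75th percentile, from the Edwards values (1.28, 0.0559) or the scanner's processed signal (1.32, 0.0870).

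INSIG2, which binds SCAP in the same way as INSIG1, did not pass the test at either dose. Its brighter probe, A_23_P102454, spans 1151 bases of the genome with 60 bases of sequence and so crosses a splice junction, at chr2:118864711-118865861 of hg19. In DMSO its log2 values were 9.56, 9.22, 9.25 and 9.26, at 28 µM 9.61, 9.25, 9.40 and 9.24, and at 42 µM 9.61, 9.11, 9.20 and 9.11. The replicate 1 array was the highest in each group, and the groups overlapped throughout. The log2 fold change was -0.07 at 42 µM (95% interval -0.37 to 0.24) and 0.05 at 28 µM (-0.25 to 0.36). The dimmer probe, A_24_P944458, had values from 7.69 to 8.11 over all arrays and a log2 fold change of 0.07 (-0.17 to 0.31) at 42 µM. On both INSIG2 probes the intervals at both doses lay within 0.6 of 0, the limit used for a call.

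SREBF2 encodes SREBP-2, the form that acts mainly on cholesterol genes. Its brighter probe, A_23_P419602, lies at chr22:42302199-42302258 of hg19 on the plus strand, from base 4152 of its transcript. In DMSO the log2 values were 10.32, 10.15, 10.35 and 10.13. At 28 µM they were 11.05, 11.18, 11.12 and 10.40, and at 42 µM 11.24, 11.64, 11.04 and 11.04. Both doses were above every DMSO array, although 28 µM replicate 4 exceeded the highest by only a small step. For 28 µM this was the only one of 14 probes to separate in this way, against 2.69% of all probes. The mean was 10.24 ± 0.11 (SD, n = 4) in DMSO and 11.24 ± 0.28 (n = 4) at 42 µM, which is a difference of 1.003 (SE 0.18, 95% interval 0.61 to 1.39) or 2.004-fold, with limma's adjusted p = 0.0160. At 28 µM it was 0.70 (SE 0.18, limma adjusted p = 0.197) with all arrays, 0.88 without replicate 4 and between 0.62 and 0.74 with any other array left out.

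The SREBF2 call at 42 µM was lost without DMSO replicate 2 (limma adjusted p = 0.0601) and without 42 µM replicate 2 (0.0654), while the log2 fold change stayed between 0.87 and 1.07 over all 12 arrays left out. Within slides the 42 µM array was above the DMSO array in 3 of 3, by 0.89 to 1.29, and the slide as a block gave 1.03 with limma's adjusted p = 0.0644. The dimmer SREBF2 probe, A_23_P166502, starts at base 4504 of the same transcript and was not called at 42 µM. Its log2 values were 7.44, 7.65, 8.07 and 8.19 in DMSO and 8.10, 8.72, 8.06 and 8.77 at 42 µM, so the groups overlapped. The log2 fold change was 0.57 (SE 0.21, 95% interval 0.11 to 1.04, limma adjusted p = 0.196). On this probe the 28 µM replicate 4 array was at 8.36 and did not stand below the other 28 µM arrays, which were at 7.89, 8.48 and 8.38.

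SREBF1 encodes SREBP-1, whose forms act mainly on fatty acid genes, and of its 2 probes the brighter was called at 42 µM. The brighter, A_23_P129786, lies at chr17:17715419-17715478 of hg19 on the minus strand, from base 4185 of its transcript. Its log2 values were 12.59, 12.50, 12.56 and 12.69 in DMSO, 13.46, 13.22, 13.21 and 12.41 at 28 µM, and 13.48, 13.34, 13.53 and 13.29 at 42 µM. The 42 µM arrays were close together and all above DMSO, and 28 µM replicate 4 was again below every DMSO array. From 12.58 ± 0.08 (SD, n = 4) in DMSO the mean rose to 13.41 ± 0.12 (n = 4) at 42 µM, which is a difference of 0.83 (SE 0.18, 95% interval 0.43 to 1.22) or 1.77-fold, with limma's adjusted p = 0.0292. At 28 µM it was 0.49 (SE 0.18, limma adjusted p = 0.337) with all arrays, 0.71 without replicate 4 and between 0.36 and 0.53 with any other array left out.

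The SREBF1 call at 42 µM was lost without any DMSO array and without 42 µM replicates 1, 2 or 3, with limma's adjusted p between 0.0648 and 0.0956 and a log2 fold change between 0.79 and 0.87. With a log2 limit of 1 the call was lost too. Within slides the difference was 0.78 to 1.04, higher at 42 µM in 3 of 3. The call was also lost with the slide as a block (0.84, limma adjusted p = 0.0695) and with arrays scaled to their 75th percentile, from the Edwards values (0.61, 0.0975) or the processed signal (0.59, 0.135). The dimmer SREBF1 probe, A_24_P390784, was at 8.31, 8.26, 9.07 and 8.85 in DMSO and at 8.59, 9.49, 9.44 and 9.53 at 42 µM. The 42 µM replicate 1 array lay among the DMSO arrays and the other 42 µM arrays above them. Its log2 fold change was 0.64 (SE 0.24, 95% interval 0.12 to 1.16) and limma's adjusted p = 0.195. At 28 µM this probe was at 8.77, 8.91, 9.33 and 9.32, and replicate 4 was above every DMSO array, unlike on the brighter probe. Its 28 µM log2 fold change was 0.46 (95% interval -0.06 to 0.98, limma adjusted p = 0.508) with all arrays and 0.38 without replicate 4.

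SCAP, the escort, did not pass at either dose. Its probe A_23_P252825 was at 11.32, 11.09, 11.49 and 11.23 in DMSO, at 11.13, 11.85, 11.67 and 11.60 at 28 µM, and at 11.19, 12.06, 11.75 and 11.72 at 42 µM. The replicate 1 array of each dose lay among the DMSO arrays, and the other 3 of each dose lay above all of them. These replicate 1 arrays share a slide. The log2 fold change was 0.28 (95% interval -0.13 to 0.69, limma adjusted p = 0.613) at 28 µM and 0.40 (-0.01 to 0.80, limma adjusted p = 0.344) at 42 µM.

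The proteases that free SREBP did not pass either. MBTPS1 has 3 probes, of which A_23_P14946 and A_23_P14948 overlap on the genome by 9 of their 60 bases. They read neighbouring stretches of the same transcript. At 42 µM the log2 fold changes of the 3 were 0.27, 0.28 and 0.22, and the widest 95% interval was -0.42 to 0.87. At 28 µM they were 0.12, -0.03 and 0.28, and the last was -0.003 without replicate 4. The probe A_24_P378368 reached 7.39 on 28 µM replicate 4 and 7.15 on 42 µM replicate 4, against 5.97 to 6.63 on all other arrays. The tested MBTPS2 probe was at 7.71, 7.98, 8.12 and 8.04 in DMSO and at 7.80, 8.76, 8.15 and 8.72 at 42 µM. The latter spread over nearly 1 unit and overlapped DMSO, with a log2 fold change of 0.40 (95% interval -0.09 to 0.88, limma adjusted p = 0.453).

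MYLIP, the brake on lipoprotein uptake, was the only one of the 8 genes with a negative log2 fold change at 42 µM on every tested probe, and neither probe passed. The brighter, A_24_P917123, was at 7.43, 7.44, 7.79 and 7.60 in DMSO and at 7.11, 7.19, 7.49 and 7.49 at 42 µM. Its log2 fold change was -0.24 (95% interval -0.56 to 0.08, limma adjusted p = 0.497). The other, A_23_P31041, was at 6.79, 6.74, 7.21 and 7.01 in DMSO and at 6.23, 6.69, 6.59 and 6.76 at 42 µM, a log2 fold change of -0.38 (-0.80 to 0.05, limma adjusted p = 0.407). On both probes the lowest of the 12 arrays was 42 µM replicate 1, and the highest was 28 µM replicate 4, at 7.88 and 7.44. The 28 µM log2 fold changes were -0.04 and -0.12 with all arrays and -0.16 and -0.33 without replicate 4, and none was called.

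**Figure D2:**
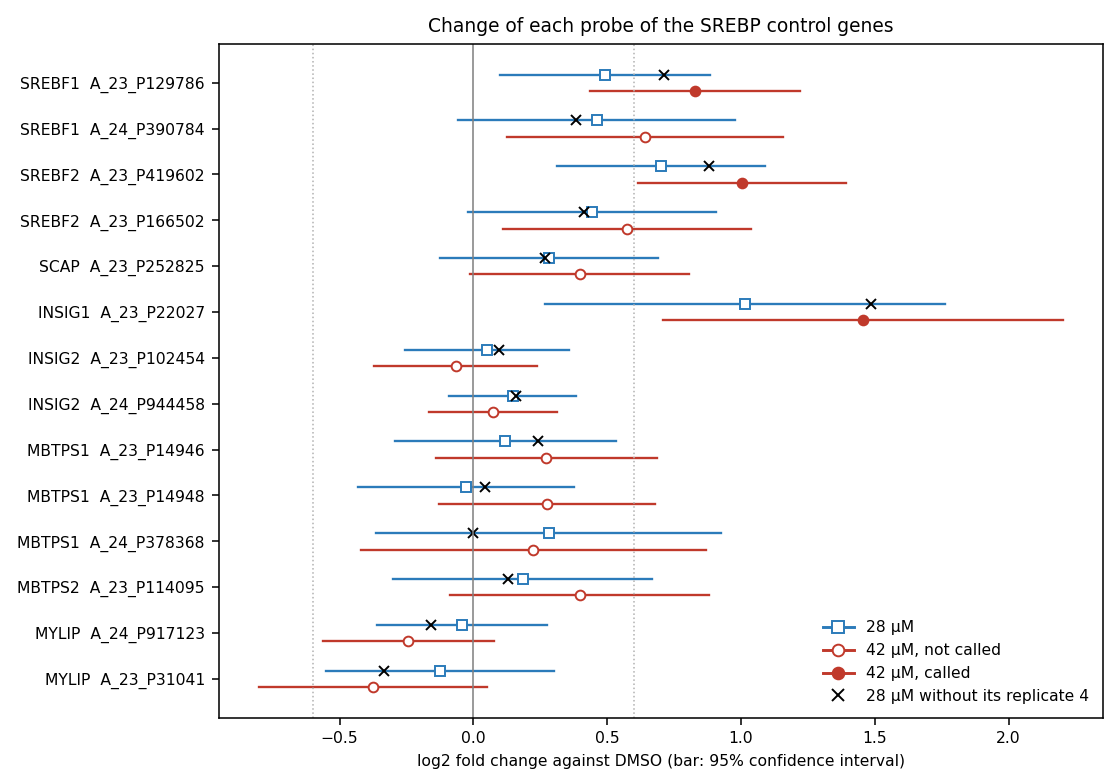
Log2 fold change against DMSO (x axis) of the 14 tested probes (y axis) at 28 µM (squares) and 42 µM (circles), with 95% confidence intervals as bars, filled symbols where the probe was called, crosses for 28 µM without its replicate 4 array and dotted lines at the limit of 0.6 either way. The 3 filled symbols are at 0.83, 1.003 and 1.46, and for INSIG1 the cross at 1.49 is next to the 42 µM value.

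Between the doses 0 of 14 probes passed, as did 0% of all probes. Limma's adjusted p was 0.9995 for each of the 14, and 0 of 14 had an unadjusted p below 0.05. The 42 µM minus 28 µM log2 difference was 0.44 for INSIG1 (95% interval -0.31 to 1.19), 0.30 for the bright SREBF2 probe (-0.09 to 0.69) and 0.33 for the bright SREBF1 probe (-0.06 to 0.73). Without 28 µM replicate 4 these differences were -0.03, 0.12 and 0.11. On the slide that holds DMSO replicate 3, 28 µM replicate 4 and 42 µM replicate 2, INSIG1 was 1.96 higher at 42 µM than at 28 µM. On the other slides with both doses it differed by 0.14 and -0.23.

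Genes around the switch were read from lists of the pathway, 96 genes of which 95 were tested, each by its brightest tested probe. At 42 µM 15 of the 95 were called higher and 0 lower, while 1.58% of 24176 genes were called higher and 1.42% lower. The median log2 fold change over all genes was -0.02. The lists were chosen with earlier results of these data known, so the shares are set side by side as a description and are no test. The called genes lay in 4 of the 7 lists, and lists of enzymes and uptake genes held 14 of the 15.

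Sterol synthesis, the main branch that SREBP-2 controls, had 9 of 23 genes called higher at 42 µM, with a median log2 fold change of 0.77 and 22 of 23 positive. LSS, which makes lanosterol from squalene epoxide, was at 11.29 ± 0.11 (SD, n = 4) in DMSO and 12.87 ± 0.23 (n = 4) at 42 µM. Its log2 fold change was 1.58 (limma adjusted p = 0.0139). MVD, which makes isopentenyl diphosphate, rose by a log2 fold change of 1.37 (0.0180), and HMGCS1, the synthase that makes HMG-CoA, by 1.23 (0.0339). At 28 µM 0 of 23 were called with all arrays, with a median of 0.64. By the unadjusted p with the limit on the fold, 11 of 23 were higher, against 1.47% of all genes. Without replicate 4, picked out as described above, 16 of 23 and 1.45% of all genes were called higher, with a list median of 0.86.

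Fatty acid synthesis, the branch of SREBP-1, had 4 of 14 genes called higher at 42 µM, with a median log2 fold change of 0.83. ACSS2, which makes acetyl-CoA from acetate, rose from 8.87 ± 0.11 (SD, n = 4) in DMSO to 10.98 ± 0.47 (n = 4), a log2 fold change of 2.11 (limma adjusted p = 0.0154). SCD, the desaturase that makes oleate, rose by 1.59 (0.0311) and FADS1, a desaturase of longer chains, by 0.96 (0.0459). At 28 µM 0 of 14 were called with all arrays, with a median of 0.66, and 7 of 14 were higher by the unadjusted p, beside 1.47% of all genes. Without replicate 4 the count was 8 of 14, beside 1.45% of all genes, with a median of 0.79.

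The list of LDL uptake and release holds receptors and adaptors of lipoprotein uptake, the enzymes that act with MYLIP and the genes that free cholesterol in lysosomes, and 1 of its 14 genes was called higher at 42 µM, with a median log2 fold change of 0.21. That gene was VLDLR, a lipoprotein receptor that MYLIP marks for degradation. It was at 7.99 ± 0.22 (SD, n = 4) in DMSO, 9.31 ± 0.90 (n = 4) at 28 µM and 9.66 ± 0.28 (n = 4) at 42 µM. The difference of 42 µM from DMSO was 1.67 on the log2 scale (SE 0.34, limma adjusted p = 0.0206). The values are of RNA and not of receptor protein, and a link to MYLIP, which did not pass, was not tested. At 28 µM 0 of 14 were called with all arrays and 4 of 14 were higher by the unadjusted p, beside 1.47% of all genes. Without replicate 4 the count was 2 of 14, beside 1.45%.

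A list of partners of INSIG and SCAP, which also holds proteins that act on SREBP itself, gave 1 called gene of 16 at 42 µM, with a median log2 fold change of -0.06. That gene was LPIN1, of the latter kind, which rose by 1.43 (limma adjusted p = 0.0208) and which encodes lipin-1, a phosphatidate phosphatase that also limits nuclear SREBP. In the COPII coat, which carries SCAP and SREBP out of the ER, 0 of 11 were called, with a median of -0.03. Among LXR receptors and targets, the class to which MYLIP belongs, 0 of 9 tested were called, with a median of -0.12 and a range from -0.57 to 0.30. For other substrates of the site-1 and site-2 proteases, ATF6 among them, the count was 0 of 8, with a median of 0.08. By an unadjusted p below 0.05 with the same limit on the fold, these 3 lists also had 0 genes in either direction.

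**Figure D3:**
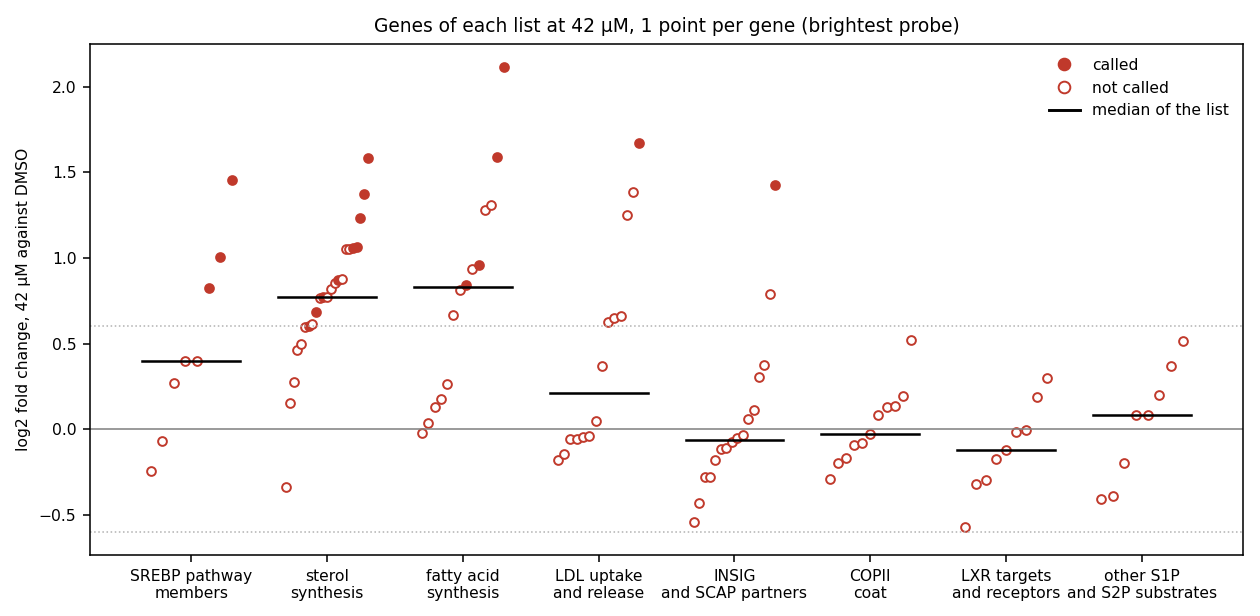
Log2 fold change at 42 µM against DMSO (y axis) of each gene in the 8 lists (x axis), by its brightest tested probe, with filled points where the gene was called, a line at the list's median and dotted lines at the limit of 0.6 either way. Filled points lie above 0.6 in 5 lists, the SREBP genes among them, and the coat, LXR and protease substrate lists have none.

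Array by array the median of the sterol list, as a change from the DMSO mean, was 0.88, 0.95, 0.66 and -0.01 for replicates 1 to 4 at 28 µM and 0.89, 0.79, 0.65 and 0.70 at 42 µM. The fatty acid list gave 0.65, 0.90, 0.76 and 0.02 at 28 µM and 0.55, 0.95, 0.87 and 0.71 at 42 µM. The 8 SREBP genes, each by its brightest probe, gave 0.43, 0.53, 0.31 and 0.04 at 28 µM and 0.43, 0.77, 0.37 and 0.57 at 42 µM. In all 3 lists the 28 µM replicate 4 array was near DMSO and the other 7 treated arrays were above every DMSO array.

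**Figure D4:**
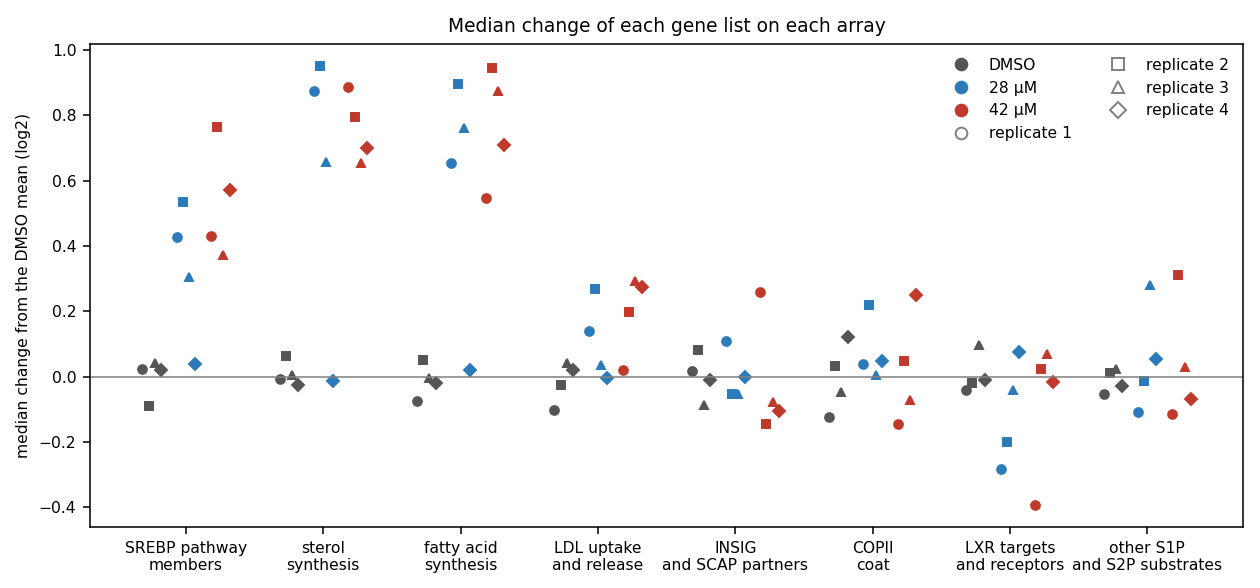
Median change of each list from its DMSO mean (y axis, log2) on each of the 12 arrays, by list (x axis), coloured by group with 1 shape per replicate number. In the SREBP gene, sterol and fatty acid lists the 7 other treated arrays are above DMSO and 28 µM replicate 4 is at 0.04, -0.01 and 0.02.

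The genes whose profile over the 12 arrays was most like each called member were found by the smallest mean absolute difference of log2 values centred on the DMSO mean, among all 24176 genes tested. For INSIG1 they were CTH, an enzyme that makes cysteine (mean difference 0.11), SYNE4 (0.12) and RRAGC, a GTPase of the mTORC1 pathway (0.12). For SREBF2 they were TIPARP, an ADP-ribosyltransferase (0.08), MUC20 (0.10) and SLC38A7, an amino acid transporter (0.10). For SREBF1 they were SLC12A7, a potassium chloride cotransporter (0.09), GRB10, an adaptor of insulin signalling (0.10), and RHOQ, a small GTPase (0.11). None of these 9 genes is in the pathway lists. CTH had log2 fold changes of 1.10 at 28 µM and 1.63 at 42 µM, beside 1.02 and 1.46 for INSIG1.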

How the data were processed

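RNA of 12 HuH-7 cultures was hybridised to Agilent 4x44K arrays. The authors deposited Feature Extraction output with a mean and a background intensity per spot, and a table of log2 values. The table's scale and direction were checked against the scanner values (correlation of at least 0.999 on every array) and it served as an alternative. Detection, saturation and outlier marks (a score of 0 or 1) were read from the deposited flags. The file headers name Feature Extraction 10.7.3.1 and hg19 probe positions.

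As in the study's methods, the Edwards correction was applied to the intensities, followed by quantile normalization (limma 3.58.1, R 4.3.3). Control spots were left out before the correction and outlier spots before the normalization, and spots of a probe were averaged after it. These are choices made here. Dropped, after the methods' detection filter, were probes where 3 or more of 4 arrays per group failed detection in all groups. The 3 is a reading of "majority", and 33477 of 41000 were kept. The methods name a 2-fold limit and the results 0.6 on the log2 scale, used here. One model (lmFit, eBayes) held all 12 arrays in 3 groups, two-sided, with Benjamini-Hochberg adjustment over all probes. On simulated data with 200 of 33411 probes shifted by 1.5, 177 were recovered for 42 µM against DMSO, with 7 false calls. The simulated noise was independent between arrays and held no slide effect, so these counts give no error rate for the real arrays.

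The members and lists were chosen with earlier results of these data known. Named beyond the members are, per list, up to 3 called genes with the largest increase and 3 with the largest decrease at 42 µM, and 3 genes most like each called member. Part of the LDL uptake list is not reported here. Precision is limited by the number of arrays. Alternatives were the background correction, the scaling, the filter, the authors' table, the slide as a fixed or random block, the replicate number as a block, only the groups compared, array weights, a log2 limit of 1 and leaving out each array. Promoters came from RefSeq for GRCh38.p14, and figures were drawn with matplotlib.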

Additional observations from a re-analysis of the deposited data

Results flagged for a closer look

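Of 45 sets of 4 arrays (15 probes in 3 groups), 4 had an extreme array by Dixon's ratio, the gap to the nearest array over the whole range, and chance gives about 1 in 20. The dimmer SREBF1 probe had 42 µM replicate 1 lowest (ratio 0.901). The brighter SREBF2 probe had 28 µM replicate 4 lowest (0.831). The brighter INSIG2 probe had DMSO replicate 1 highest (0.899). The MYLIP probe A_23_P31041 had 28 µM replicate 4 highest (0.8292). For INSIG1 the same array lay 1.71 below the next at 28 µM, with a ratio of 0.826.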

How the results depend on the processing

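At 42 µM the 3 called member probes kept a positive log2 fold change under all 24 alternatives. The number of calls moved more than the changes did. Calls among the members were 3, but 2 with a log2 limit of 1 and 0 with a slide block. They were 1 when arrays were scaled to the 75th percentile, from either the processed signal or the Edwards values. Leaving out 1 array gave 0 to 3, and 0 to 3 at 28 µM. Genes of the pathway lists called higher at 42 µM were 15, but 5 with the processed signal, 8 with Edwards values so scaled, 0 with a slide block, 26 with the replicate number as a block, 30 with only the groups compared, 27 with array weights and 9 with a log2 limit of 1. Leaving out 1 array gave 0 to 29 at 42 µM and 0 to 27 at 28 µM. Genes called lower were 0, but 1 with the slide as a random block and with array weights, and 0 to 1 with 1 array left out. Over all probes, 472 higher and 413 lower at 42 µM became 276 and 338 with the processed signal, 319 and 493 with Edwards values scaled to the 75th percentile, 0 and 1 with a slide block, 209 and 157 with a log2 limit of 1, and 776 higher with the replicate number as a block. Without 1 array they were 0 to 671 higher and 0 to 549 lower, and 0 was reached without DMSO replicate 2 and without 42 µM replicate 2. At 28 µM, 0 became 1 higher and 1 lower with the replicate block, and 0 to 437 higher and 0 to 281 lower without 1 array, where only leaving out 28 µM replicate 4 gave any. Between the doses every alternative gave 0 calls among the members.

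The replicate numbers of the labels were looked at as pairs. Arrays of the same number had correlations of their deviations from the group means from -0.46 to 0.62. The highest was between replicate 1 of 28 µM and of 42 µM, which share a slide. Arrays of different numbers were not compared, so this range cannot show whether the numbers are pairs. The main model did not use the numbers, and an alternative took them as a block. With the replicate block the members kept their 3 calls at 42 µM and A_24_P390784 of SREBF1 was called as well. The cause of these differences was not tested. Depth does not apply to arrays. MBTPS1 probe A_24_P378368, near background, changed its 28 µM log2 fold change from -0.003 to 1.04 over the alternatives.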
